A study of Homo sapiens with 18 samples.

Results

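MAX peaks were examined at 10 mitotic kinase and cyclin genes: CDK1, CCNA2, CCNB1, CCNB2, PLK1, PLK4, AURKA, AURKB, BUB1 and MAD2L1. The genes were chosen by name, out of 19974 protein-coding genes on chromosomes 1 to 22 and X. A peak was taken as a gene's own when its summit, the position of highest signal, lay inside the gene or within 2500 bp of either outer end in hg38. MAX was measured by chromatin immunoprecipitation and sequencing in U2OS, a human osteosarcoma cell line. In all cells the endogenous MYC gene was knocked out, and a Tet-On transgene gave MYC under doxycycline, as the mutant 3A, the mutant 7A or wild type (WT). The labels do not say which residues the mutants change, nor whether each line is 1 clone. Cells of each MYC form were given doxycycline (Dox) at 1 µg/ml over 24 h, or PBS without Dox, with 2 MAX immunoprecipitations and 1 input per condition. Fixed mouse NIH3T3 cells were added at 10% as a reference genome. The values come from 3 deposited peak lists, with 27294 peaks for 3A, 25159 for 7A and 34622 for WT. Each list carries both + and − in its name for 1 MYC form. Whether the no Dox libraries were pooled with those given Dox or served as their control is not given. Every value below therefore describes 1 list, with no replicate error, and differences between lists were not tested.

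MAX is the obligate partner of MYC, and MYC-MAX dimers bind the E-box, whose canonical form is CACGTG. MAX also pairs with the MXD, MNT and MGA repressors at the same sites, so a MAX peak does not by itself show MYC. Many of the genes studied here are transcribed mainly in G2 and mitosis. Their promoters are known for CCAAT boxes, bound by NF-Y, and for the cell cycle genes homology region (CHR), often written TTTGAA, through which the DREAM repressor and the B-MYB and FOXM1 activators act.

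The promoters of CCNB1, PLK1 and CCNB2 are shown because at least 1 MAX summit lay close to an element in capitals: the E-box of CCNB1 in WT, the E-box of PLK1 in all 3 lists and the TTTGAA of CCNB2 in all 3 lists. Each line holds the 250 bases before the RefSeq start (GRCh38.p14, 5′ to 3′ along the gene). The capitals mark the E-box CACGTG in CCNB1 (chr5:69166900-69167149, plus strand) and in PLK1 (chr16:23678639-23678888, plus strand). In CCNB2 (chr15:59104896-59105145, plus strand) they mark CCAAT and TTTGAA, since this promoter held no CACGTG.
CCNB1: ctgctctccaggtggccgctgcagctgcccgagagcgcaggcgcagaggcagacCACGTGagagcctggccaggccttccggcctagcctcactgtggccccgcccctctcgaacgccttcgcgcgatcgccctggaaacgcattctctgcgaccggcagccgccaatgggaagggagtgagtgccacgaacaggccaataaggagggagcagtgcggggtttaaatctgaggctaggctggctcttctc
PLK1: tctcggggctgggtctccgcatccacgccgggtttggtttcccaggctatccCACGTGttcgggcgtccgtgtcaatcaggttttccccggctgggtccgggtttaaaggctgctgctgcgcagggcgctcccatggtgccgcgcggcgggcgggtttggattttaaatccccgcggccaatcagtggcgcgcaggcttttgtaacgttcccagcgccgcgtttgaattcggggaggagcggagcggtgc
CCNB2: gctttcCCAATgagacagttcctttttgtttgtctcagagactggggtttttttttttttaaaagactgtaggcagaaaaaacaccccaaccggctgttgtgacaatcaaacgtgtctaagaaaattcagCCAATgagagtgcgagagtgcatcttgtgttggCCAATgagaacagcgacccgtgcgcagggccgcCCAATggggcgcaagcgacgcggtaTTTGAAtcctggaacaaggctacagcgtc

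All 10 genes had a MAX peak in the 3A, 7A and WT lists, and each had exactly 1 in each list. Among all protein-coding genes, 67.7% had a peak by the same rule in 3A, 66.7% in 7A and 70.8% in WT, and 65.7% had one in all 3 lists. Of the genes with a peak in all 3 lists, 54.2% had exactly 1 in each. The threshold of 2500 bp decided nothing here. The farthest summit, that of AURKA in 7A, lay 411 bp outside the gene, and the count was 10 in each list with windows of 500 bp or 1000 bp around the outer ends. No member was left outside.

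The peaks sat at the starts of the genes. A RefSeq start with its strand was listed for 9 of the 10 genes, and in each of the 9 the summits of all 3 lists lay within 500 bp of it. Among genes with a peak in all 3 lists and a listed start, 58.6% met this for their strongest peak. None of the 10 genes had a second peak in its body or at its far end.

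**Figure D1:**
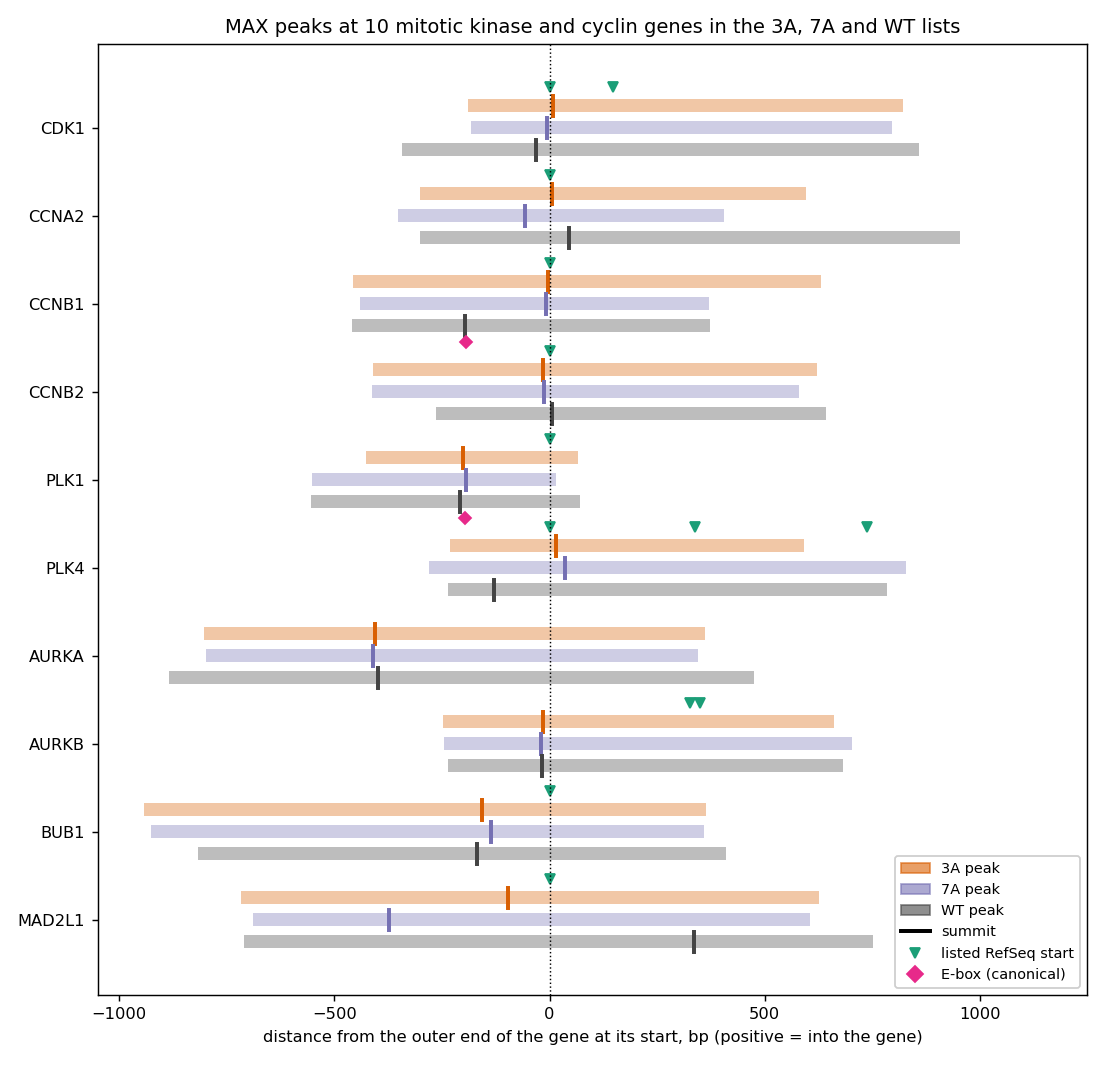
Extent of each MAX peak (bars) and its summit (vertical ticks) in the 3A, 7A and WT lists, in bp from the outer end of the gene where it starts, or for AURKA from the end nearer the peak. Triangles mark listed RefSeq starts and diamonds the canonical E-boxes of CCNB1 and PLK1; at CCNB1 the WT summit stands 3 bp from the E-box and the mutant summits at the start, and at MAD2L1 the 3 summits lie apart.

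The strength of a peak is given as the deposited fold enrichment, the linear ratio of treatment to local background at the summit. If no Dox libraries served as the control, this ratio and the background would set MAX signal with Dox against that without it, rather than against input. The percentile of a peak is its place among all peaks of its own list, with 100 the strongest. Treatment and background coverage, in the peak caller's scaled fragments, were recovered from the deposited fold enrichment and p-value. These coverages are not on the same scale in the 3 lists, because depth is unknown and a different side was scaled in 7A than in 3A and WT. For CCNB1, PLK1, AURKA, AURKB, BUB1 and MAD2L1 they are also given relative to the median over the strongest peaks of all genes in the same list. The members' median percentile was 76.0 in 3A, 67.9 in 7A and 77.6 in WT. Over all genes with a peak in the list, the strongest peak of each gene had a median of 71.0 in 3A, 68.5 in 7A and 74.7 in WT. The 10 genes varied widely among themselves. AURKB and PLK4 stood at the ends of their range in the mutant lists, and MAD2L1 and PLK4 in WT.

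CDK1 encodes the kinase that drives entry into mitosis. The CDK1 peak had a fold enrichment of 17.3 in 3A, 15.03 in 7A and 12.3 in WT, at percentiles 76.5, 68.7 and 57.8 of these lists. Both mutant values were the higher ones. Treatment coverage was 160 in 3A, 239 in 7A and 246 in WT, over a background of 8.28 in 3A, 14.9 in 7A and 19.1 in WT. The 3A summit lay 7 bp after the first listed start (chromosome 10, 60778331), the 7A summit 6 bp before it and the WT summit 32 bp before it.

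CCNA2 encodes cyclin A2, a partner of CDK1 and CDK2 in S phase and G2. Fold enrichment at CCNA2 was 17.0 in 3A, 22.1 in 7A and 16.8 in WT, at percentiles 75.5, 85.1 and 72.5 of these lists. The peak was narrower in the mutant lists, with 897 bp in 3A, 758 bp in 7A and 1256 bp in WT. The 7A summit lay 58 bp before the start, whereas that of 3A lay 5 bp and that of WT 45 bp after it. Ranked by −log10 q the order of CCNA2 turned, with percentiles of 76.0 in 3A, 71.2 in 7A and 76.9 in WT. The CCAAT box of CCNA2 was 59 bp from the summit in 3A, 4 bp in 7A and 99 bp in WT. BBS7, a gene of the ciliary BBSome, has its nearer end 491 bp from the WT summit.

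CCNB1 encodes cyclin B1, the main mitotic partner of CDK1, and its promoter is printed above. Its fold enrichment was 32.3 in 3A, 13.8 in 7A and 22.4 in WT, at percentiles 94.0, 63.9 and 82.7 of these lists. The mutants thus lay on opposite sides of WT. Treatment coverage was 321 in 3A and 374 in 7A, against 536 in WT, and background was 8.99 in 3A, 26.1 in 7A and 22.99 in WT. Relative to the list's median, treatment at CCNB1 was 2.43 in 3A, 2.01 in 7A and 2.23 in WT, and background was 1.12 in 3A, 2.19 in 7A and 1.77 in WT. What sets the order of the ranks was not tested.

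The CCNB1 peaks overlapped in the 3 lists, but their summits differed. The E-box of CCNB1 begins 196 bases before the start, and the WT summit lay 3 bp from its centre. The 3A summit lay 190 bp from that centre and 3 bp before the start, and the 7A summit 185 bp from it and 8 bp before the start. Of all genes with overlapping strongest peaks, 11.6% had a summit at least as far from the WT summit in 3A, and 12.3% in 7A. The CCAAT boxes of this promoter were 50 and 82 bp from the 3A summit and 45 and 77 bp from the 7A summit. From the WT summit they were 144 and 112 bp away. A TTTAAA match was 24 bp from the summit in 3A, 19 bp in 7A and 169 bp in WT. A GGGCGG match was 144 bp from it in 3A, 139 bp in 7A and 49 bp in WT. The whole E-box lay inside the CCNB1 peak of each list. The peak was 1090 bp wide in 3A, 813 bp in 7A and 833 bp in WT.

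CCNB2, the gene of cyclin B2, was the member with the lowest WT percentile after PLK4. Its fold enrichment was 14.0 in 3A, 14.4 in 7A and 11.5 in WT, at percentiles 65.1, 66.3 and 54.1 of these lists. Both mutant lists placed it higher, also by −log10 q, with percentiles of 77.7 in 3A, 80.7 in 7A and 66.2 in WT. Treatment coverage was 180 in 3A, 289 in 7A and 216 in WT. The summits were 10 bp from the TTTGAA element in 3A, 14 bp in 7A and 31 bp in WT, and CCAAT boxes stood 54, 87, 120 and 244 bases before the start. This TTTGAA begins 29 bases before the start, and the summits themselves lay within 16 bp of the start. The CCNB2 peak was wider in the mutant lists, at 1031 bp in 3A, 994 bp in 7A and 906 bp in WT.

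PLK1 encodes Polo-like kinase 1, which acts in mitotic entry, spindle assembly and cytokinesis. Fold enrichment at PLK1 was 36.7 in 3A, 20.1 in 7A and 24.3 in WT, at percentiles 95.8, 81.7 and 85.0 of these lists. Background was 3.64 in 3A, 9.35 in 7A and 17.0 in WT, and treatment coverage was 169 in 3A, 207 in 7A and 437 in WT. Relative to the list's median, treatment at PLK1 was 1.28 in 3A, 1.11 in 7A and 1.81 in WT. Relative background was 0.456 in 3A, 0.783 in 7A and 1.31 in WT. By −log10 q the percentiles were 87.5 in 3A, 76.5 in 7A and 89.1 in WT, so that 3A stood below WT on that measure. In lists of equal length the order of 7A and WT turned as well, to 81.7 in 7A and 79.4 in WT.

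The E-box of PLK1 begins 198 bases before the start. In contrast to CCNB1, the summits of all 3 lists lay beside it: 4 bp from its centre in 3A, 2 bp in 7A and 13 bp in WT. These peaks were the narrowest of the members, with 494 bp in 3A, 568 bp in 7A and 627 bp in WT. The TTTGAA element of PLK1, 29 bases before the start, was 173 bp from the summit in 3A, 166 bp in 7A and 182 bp in WT.

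PLK4 encodes the kinase that starts centriole duplication, and it had the weakest peak of the 10 genes in each list. Its fold enrichment was 6.29 in 3A, 8.94 in 7A and 5.59 in WT, at percentiles 13.8, 35.5 and 13.2 of these lists. The 7A value was the highest. Treatment coverage was 74.6 in 3A, 106 in 7A and 93.0 in WT, the lowest of the members. By −log10 q the percentiles were 20.1 in 3A, 34.6 in 7A and 22.2 in WT, which puts 3A below WT. Mutant summits lay after the first listed start, by 16 bp in 3A and 36 bp in 7A, and the WT summit 128 bp before it. A TTTGAA match of PLK4 was 24 bp from the summit in 3A, 4 bp in 7A and 168 bp in WT, and a GGGCGG match 150 bp in 3A, 170 bp in 7A and 6 bp in WT. With the lists reduced to equal length PLK4 had no WT peak.

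AURKA encodes Aurora kinase A, which acts at centrosomes and spindle poles. Its fold enrichment was 12.1 in 3A, 16.1 in 7A and 25.0 in WT, at percentiles 56.2, 72.4 and 85.7 of these lists. Both mutants thus ranked below WT, and the treatment coverage was 277 in 3A, 437 in 7A and 703 in WT, the highest WT value of the members. Background was 22.02 in 3A, 26.1 in 7A and 27.2 in WT. Relative to the list's median, treatment at AURKA was 2.09 in 3A, 2.35 in 7A and 2.92 in WT. Relative background was 2.76 in 3A, 2.19 in 7A and 2.09 in WT, higher in both mutants. By −log10 q the gap in rank was smaller, with percentiles of 85.8 in 3A, 90.0 in 7A and 94.5 in WT.

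The AURKA peak may be that of CSTF1, a gene of mRNA cleavage. A listed CSTF1 start lies nearer to the summits than the end of AURKA does. AURKA ends at 56392215 on chromosome 20, and the summits lay 406 bp beyond that end in 3A, 411 bp in 7A and 399 bp in WT. They were 24 bp from a listed CSTF1 start (56392645) in 3A, 19 bp in 7A and 31 bp in WT. A peak list cannot assign such a peak to either gene.

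AURKB encodes Aurora kinase B, the catalytic subunit of the chromosomal passenger complex. It had the strongest mutant peaks of the 10 genes, with a fold enrichment of 47.7 in 3A, 54.1 in 7A and 22.7 in WT, at percentiles 98.0, 98.4 and 83.1 of these lists. These are ranks 542 in 3A and 416 in 7A, against 5845 in WT. Treatment coverage was 332 in 3A, 356 in 7A and 523 in WT. The background was 5.99 in 3A and 5.599 in 7A, against 22.03 in WT. Relative to the list's median, treatment at AURKB was 2.51 in 3A, 1.91 in 7A and 2.17 in WT, and background was 0.7495 in 3A, 0.469 in 7A and 1.70 in WT. The relative background was lower in both mutants than in WT, while the relative treatment was higher in 3A and lower in 7A. A relative background lower in both mutants was also found at CDK1, CCNA2, PLK1 and BUB1, and at no other member. By −log10 q the percentiles were 96.5 in 3A, 94.0 in 7A and 91.0 in WT.

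The AURKB peaks were alike in place and width. Widths were 908 bp in 3A, 949 bp in 7A and 921 bp in WT. The summits lay outside the gene's outer end (chromosome 17, 8210575) by 14 bp in 3A, 19 bp in 7A and 17 bp in WT. They were 340 bp or more from the starts listed for AURKB, and the stretch under them is not in the promoter sequences used here.

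**Figure D2:**
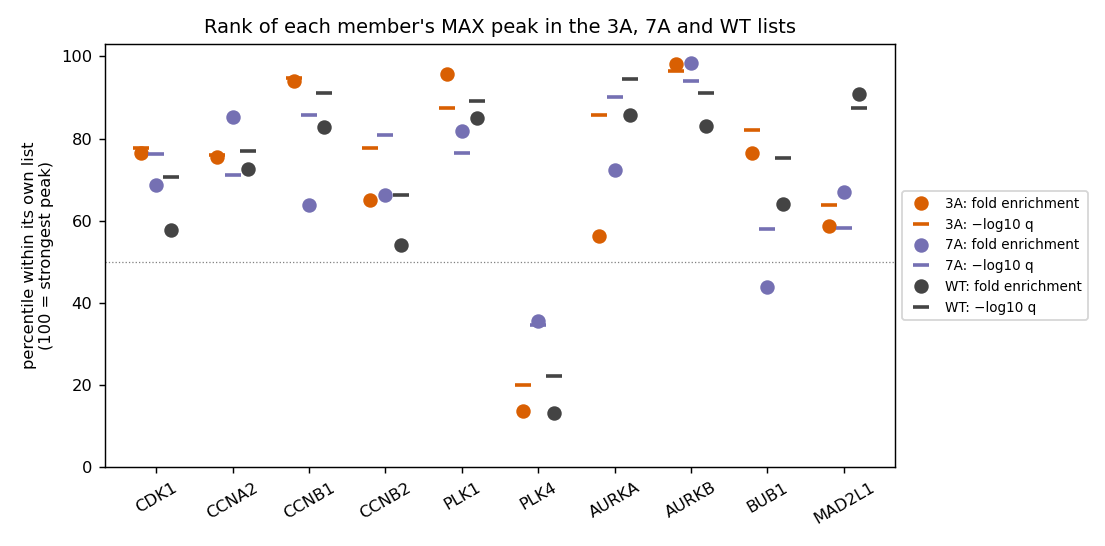
Percentile of each gene's MAX peak within the 3A, 7A and WT lists, by fold enrichment (points) and by −log10 q (dashes); 100 is the strongest peak. AURKB is near the top in 3A and 7A, PLK4 is lowest in each list, and AURKA and MAD2L1 are lower in both mutants than in WT on both scales.

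BUB1 encodes a spindle checkpoint kinase that works at kinetochores. The BUB1 peak had a fold enrichment of 17.3 in 3A, 10.1 in 7A and 13.9 in WT, at percentiles 76.5, 43.9 and 64.0 of these lists. As at CCNB1, 3A ranked above WT and 7A below it. Treatment coverage was 189 in 3A, 179 in 7A and 277 in WT, over a background of 10.0 in 3A, 16.8 in 7A and 19.0 in WT. Relative to the list's median, treatment at BUB1 was 1.43 in 3A, 0.962 in 7A and 1.15 in WT. Relative background was 1.25 in 3A, 1.41 in 7A and 1.46 in WT. By −log10 q the order of the ranks was the same, with percentiles of 82.2 in 3A, 57.9 in 7A and 75.2 in WT. The summits lay 158 bp before the start in 3A, 135 bp in 7A and 169 bp in WT. They were within 20 bp of the start of LOC105373554, a long noncoding RNA listed on the other strand.

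MAD2L1 encodes MAD2, the checkpoint protein that holds back the anaphase-promoting complex. It had the strongest WT peak of the 10 genes: the fold enrichment was 12.6 in 3A, 14.6 in 7A and 31.5 in WT, at percentiles 58.7, 67.1 and 90.9 of these lists. Treatment coverage was 124 in 3A, 142 in 7A and 345 in WT, and background was 8.97 in 3A, 8.77 in 7A and 9.98 in WT. Relative to the list's median, treatment at MAD2L1 was 0.940 in 3A, 0.763 in 7A and 1.43 in WT, and background was 1.12 in 3A, 0.734 in 7A and 0.768 in WT. The lower rank of MAD2L1 in the mutants also appeared by −log10 q, with percentiles of 63.7 in 3A, 58.1 in 7A and 87.3 in WT. Among all genes with a peak in both lists, 8.86% had a percentile difference at least as low in 3A and 17.5% in 7A.

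The MAD2L1 summits were the farthest apart of the members. The 3A summit lay 97 bp before the start (chromosome 4, 120066848), the 7A summit 374 bp before it and the WT summit 335 bp after it, inside the gene. The shift from WT was 432 bp in 3A and 709 bp in 7A, and 5.603% of all genes with overlapping strongest peaks had a shift at least as far in 3A and 2.47% in 7A. The peaks themselves spanned nearly the same stretch, 1345 bp wide in 3A, 1297 bp in 7A and 1463 bp in WT. MAD2L1-DT, a long noncoding RNA on the other strand, has a listed start 13 bp from the 3A summit and 264 bp from that of 7A. The promoter held no CACGTG within 250 bases before to 50 after the start. The 7A and WT summits lie outside this stretch, and the sequence under them was not read.

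**Figure D3:**
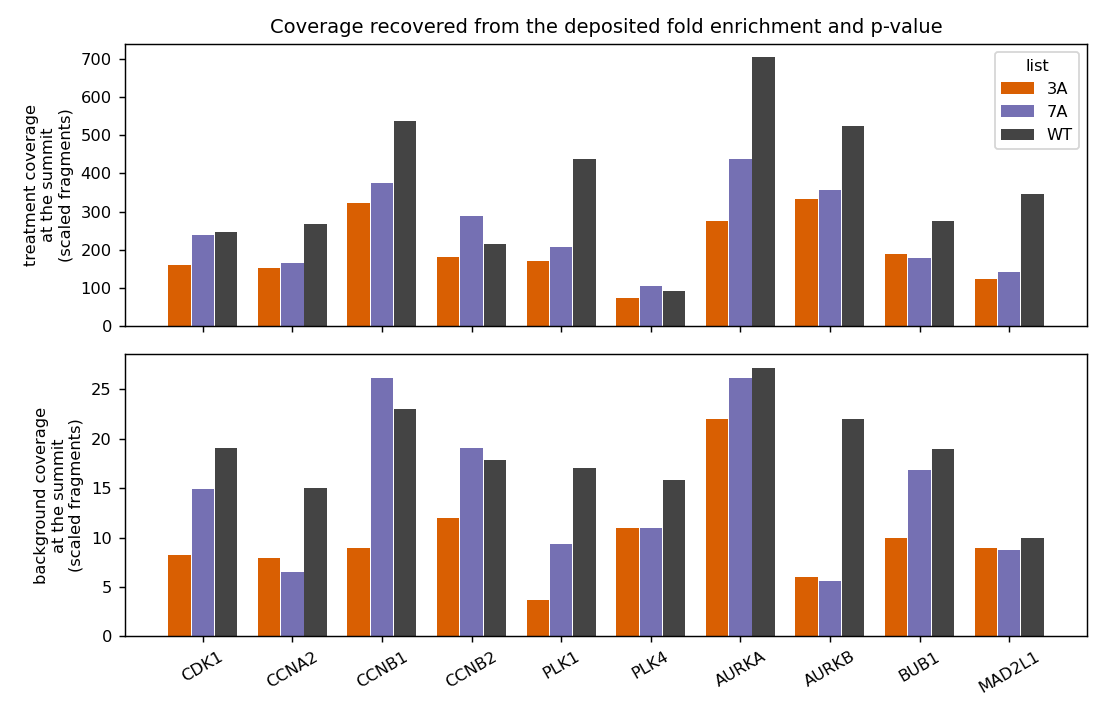
Treatment coverage (top) and background coverage (bottom) at the summit of each gene's MAX peak in the 3A, 7A and WT lists, in the peak caller's scaled fragments. The background bar is lower in 3A and 7A than in WT at all genes but CCNB1 and CCNB2. The treatment bar is lower in both mutants at all genes but CCNB2 and PLK4. Bars of different lists are not on the same scale.

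Across the members, the peaks of each mutant list overlapped those of WT in all 10 genes. Of all genes with a peak in both lists, the strongest peaks overlapped in 86.1% for 3A and 86.3% for 7A. The summit was shifted from WT by 100 bp or more in 3 of 10 genes in 3A (CCNB1, PLK4 and MAD2L1) and in 4 of 10 in 7A (the same genes and CCNA2). Among all genes with overlapping strongest peaks, 14.7% had such a shift in 3A and 15.4% in 7A. The median shift of the members was 30 bp in each mutant list, and that of all genes was 13 bp in 3A and 14 bp in 7A. The summits of 3A and 7A were under 100 bp apart in 9 of the 10 genes, all but MAD2L1, with a median gap of 10 bp. Among all genes whose strongest peaks overlapped in 3A and 7A, 91% were under 100 bp apart, with a median gap of 12 bp, so the members were ordinary in this. The 3A and 7A distances to WT share the WT list and are no independent measurements.

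The members' peaks were wide, and mostly narrower in the mutants than in WT. The median width was 1022 bp in 3A, 988 bp in 7A and 1112 bp in WT, against 831 bp, 898 bp and 947 bp for the strongest peaks of all genes in these lists. The peak was narrower in 3A than in WT in 7 of 10 genes, where 77.9% of all genes with overlapping peaks were, and narrower in 7A in 6 of 10, where 66.5% were. The members' widths thus followed the lists as a whole. The width ratio to WT ran between 0.714 at CCNA2 and 1.31 at CCNB1 in 3A, and between 0.604 at CCNA2 and 1.10 at CCNB2 in 7A.

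Ranks moved in both directions. By fold enrichment, 8 of the 10 genes ranked higher in 3A than in WT, all but AURKA and MAD2L1, and 5 of 10 ranked higher in 7A, which were CDK1, CCNA2, CCNB2, PLK4 and AURKB. Of all genes with a peak in both lists, 41.3% ranked higher in 3A and 35.8% in 7A. The members' median difference from WT was 10.9 percentile points in 3A and 3.80 in 7A, against −2.65 and −4.70 over all genes. By −log10 q, 5 of 10 ranked higher in 3A, against 34.6% of all genes, and 4 of 10 in 7A, against 29.4%, so the count for 3A depends on the measure chosen. The sizes also depend on the lengths of the lists. With lists of equal length the difference from WT at CDK1 was 32.2 points in 3A, in place of 18.7, and 26.4 in 7A, in place of 10.9. At CCNB2 it was 28.8 in 7A in place of 12.2, at CCNA2 11.3 in 3A in place of 3.05, and at BUB1 −6.62 in 7A in place of −20.2. CDK1, CCNB2 and AURKB were higher, and AURKA and MAD2L1 lower, in both mutants on both scales. The share of all genes that did so was not computed, and both differences of a gene use the same WT peak. The AURKA peak may be that of CSTF1.

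**Figure D4:**
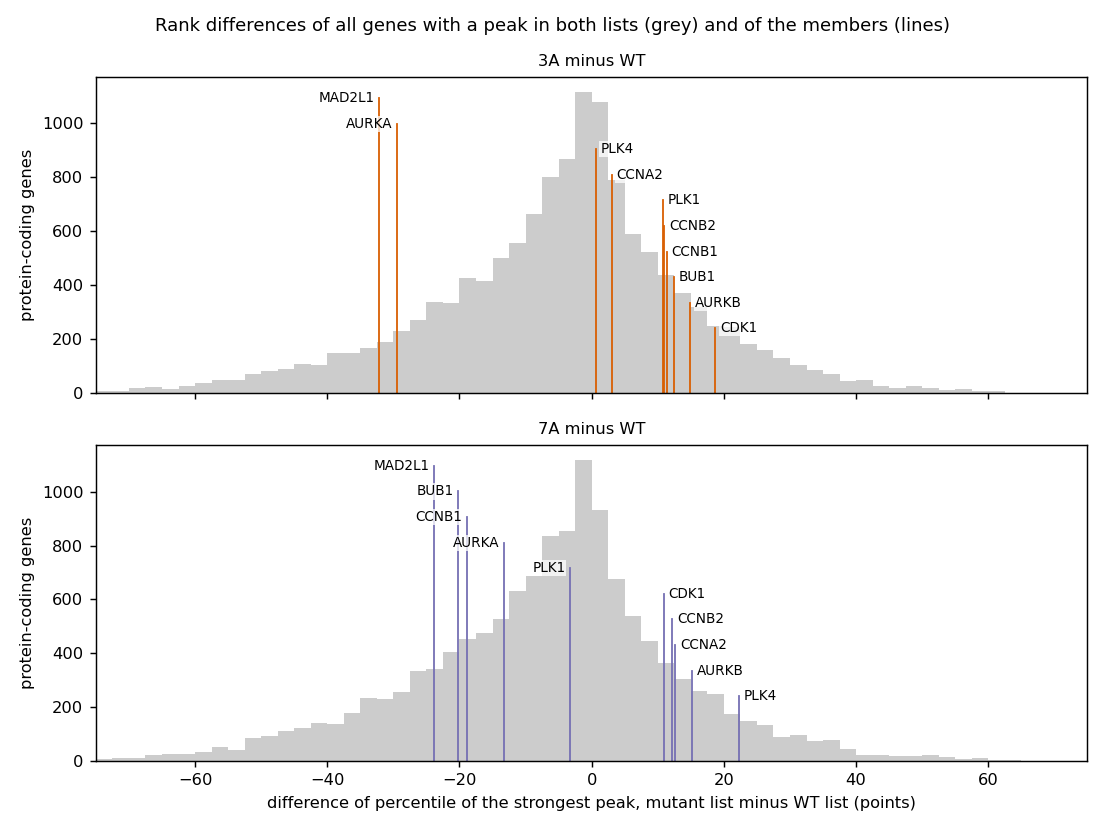
Percentile difference of the strongest peak, mutant list minus WT list in points, for all protein-coding genes with a peak in both (grey, genes per bin) and for the 10 members (lines, whose height only spaces the names), 3A above and 7A below. The members lie inside the range between the 5th and 95th percentile of all genes, −41.0 to 26.6 in 3A and −42.3 to 24.8 in 7A.

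Treatment coverage was lower in both mutants than in WT at 8 of the 10 genes, all but CCNB2 and PLK4, and at 77% of all genes with a peak in the 3 lists. The members' share was thus near that of all genes. The median over the strongest peaks of all genes was 132 in 3A, 186 in 7A and 241 in WT, and that of the members 175 in 3A, 223 in 7A and 311 in WT. Relative to the list's median, treatment was lower in both mutants at PLK1, AURKA and MAD2L1, and higher in both at CDK1, CCNB2 and PLK4. At CCNA2, CCNB1, AURKB and BUB1 it was higher in 3A and lower in 7A. The share of all genes for these relative values was not computed. Library depth and scaling are not given in the lists, so a lower occupancy in the mutants and a shallower library cannot be told apart.

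Motifs were counted in the 300 bases of each RefSeq promoter, on both strands, for the 9 members with such a promoter. CACGTG was found in CCNB1 and PLK1, 2 of 9, and in 8.34% of the 22156 listed promoters of protein-coding genes. The variants CACGCG (14.2% of promoters) and CATGTG (8.94%) were found in no member. CCAAT was found in all 9 members and in 34.6% of promoters, and TTTGAA in 5, which were CDK1, CCNB2, PLK1, PLK4 and MAD2L1, and in 12.4% of promoters. TTTAAA was found in 4 members (CDK1, CCNB1, CCNB2 and PLK1) and 10.2% of promoters, and GGGCGG in 7 members and 56.3% of promoters. CDK1, PLK4 and AURKB have several listed starts and thus more sequence to hold a match. CACGTG and TTTAAA read the same on both strands, and matches were counted for each motif alone, also where they share bases, as a CCAAT and a GGGCGG match do in CCNB2.

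Among promoters that held a CACGTG and a summit, the summit was within 25 bp of the motif in 58.8% in 3A (n = 965), 59.3% in 7A (n = 984) and 65.5% in WT (n = 982). PLK1 had its summit within 25 bp of the motif in each list, and CCNB1 in WT but not in 3A or 7A. No such share was computed for the other motifs, so their distances to the members' summits have no background.

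Other genes of mitosis were listed by role, with 78 genes in 6 lists. In 3A, 7A and WT alike 75 of the 78 had a peak, and the median percentile was 79.0 in 3A, 70.1 in 7A and 75.5 in WT. The genes without a peak by this rule were CCNA1, the germline cyclin A, SPC25, a kinetochore subunit, and KIFC1, a minus-end kinesin, and no gene had a peak in some lists and not in others.

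Among regulators of CDK1 and other mitotic kinases 14 of 15 had a peak in each list, with median percentiles of 84.5 in 3A, 79.4 in 7A and 81.0 in WT. The strongest in WT was CDC25B, a phosphatase that activates CDK1, with fold enrichments of 111 in 3A, 70.2 in 7A and 102 in WT. WEE1, the kinase that restrains CDK1, had 50.01 in 3A, 93.2 in 7A and 94.2 in WT, and CKS2, a small CDK-binding protein, 89.0 in 3A, 67.6 in 7A and 91.6 in WT. These values were above those of all 10 members in the same list.

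The spindle checkpoint and kinetochore list had a peak at 13 of 14 genes in each list, with medians of 74.0 in 3A, 62.4 in 7A and 69.5 in WT. CENPF, a kinetochore protein, led it in WT, with fold enrichments of 51.6 in 3A, 46.6 in 7A and 56.1 in WT, before MAD1L1, the partner of MAD2, with 40.1 in 3A, 24.8 in 7A and 50.7 in WT, and CENPE, a kinetochore kinesin, with 18.4 in 3A, 10.9 in 7A and 23.5 in WT. All 13 genes of the anaphase-promoting complex and cohesin release had a peak, at medians of 58.6 in 3A, 70.1 in 7A and 77.4 in WT, led in WT by ANAPC11 (48.0 in 3A, 72.9 in 7A and 75.6 in WT), FBXO5 and ANAPC10.

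Spindle, centrosome and cytokinesis genes had a peak in 12 of 13, at medians of 77.0 in 3A, 78.5 in 7A and 75.4 in WT. BORA, a cofactor of Aurora kinase A in activating PLK1, was strongest in WT, with 28.9 in 3A, 62.6 in 7A and 48.3 in WT, followed by the kinesins KIF11 and KIF20A. All 10 chromosomal passenger and condensin genes had a peak, at medians of 82.8 in 3A, 73.0 in 7A and 81.1 in WT. INCENP, which holds Aurora kinase B in its complex, had 22.2 in 3A, 12.5 in 7A and 43.1 in WT, and CDCA8, the borealin subunit, 12.7 in 3A, 22.2 in 7A and 46.8 in WT. In this complex the mutant values of INCENP and CDCA8 were below WT, whereas those of AURKB were above it. NCAPD2, a condensin subunit, had 21.1 in 3A, 23.5 in 7A and 50.2 in WT.

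All 13 genes that control transcription of mitotic genes had a peak, at medians of 82.3 in 3A, 78.0 in 7A and 71.9 in WT, led in WT by TFDP1, RBL1 and NFYB. NFYB, a subunit of the factor that binds CCAAT, had 51.3 in 3A, 55.9 in 7A and 29.3 in WT. Genes of earlier cell cycle steps are given beside these. All 9 G1 cyclin and CDK genes had a peak, at medians of 96.4 in 3A, 96.1 in 7A and 94.5 in WT, led in WT by CCNE2, CCND2 and CDK6. All 12 MCM and licensing genes had a peak, at medians of 84.4 in 3A, 84.2 in 7A and 73.8 in WT, led in WT by CDT1, MCM7 and MCM4. The medians of the mitotic kinases and cyclins, 76.0 in 3A, 67.9 in 7A and 77.6 in WT, were lower than those of the G1 genes in each list; this difference was not tested.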

How the data were processed

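The labels describe 18 ChIP libraries, 12 MAX immunoprecipitations and 6 inputs. For the antibody, the titles and antibody field (MAX) were followed, although anti-FLAG stands in the protocol. Per the submitters' processing notes, which give no versions or roles, the tools were MACS2, Picard, SAMtools, Bowtie2 and cutadapt, with genomes mm10, hg38 and hg19. Pooling of replicates, the control and any scaling by mouse reads are not given in the sources used here.

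The authors deposited narrowPeak lists without headers. The deposited fold enrichment is a linear ratio, the deposited −log10 p and −log10 q are the peak caller's p-value and q-value, and the deposited score follows −log10 q. Peak starts, ends and summit offsets, as deposited, were read as hg38 and are printed counting from 1. Summits lay within 500 bp of a RefSeq start in 31.8% of 3A, 33.7% of 7A and 25.4% of WT peaks, and in 1.32%, 1.36% and 1.22% of these lists' peaks after moving them 20000 bp.

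Genes and promoters came from RefSeq (GRCh38.p14); all 10 members and all gene-list names were matched. Percentiles rank fold enrichment within a list. Coverage was solved from fold enrichment, taken as (treatment + 1) / (background + 1), and the Poisson tail of the p-value; the treatment came out whole in 5.05% of 3A, 95.6% of 7A and 9.40% of WT peaks, and the background in 65.7% of 3A, 3.19% of 7A and 72.2% of WT peaks, so the scaled side differed between lists. On 4392 simulated summits the solved treatment was right to within 2 fragments in 100% of cases. Coverage has no replicate error, and the depth of the libraries is unknown.

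No test was run, since each MYC form has 1 list. Members and gene lists were chosen with earlier results of these data known. Of each gene list, the 3 strongest in WT, those with a peak in part of the lists and those with none were to be named. Recovered coverage and distances to starts of other genes were added after seeing the data. Scripts ran in Python 3.11.15, with SciPy 1.17.1, NumPy 2.4.6, pandas 2.3.3 and, for plots, matplotlib 3.10.9.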

Additional observations from a re-analysis of the deposited data

How the results depend on the processing

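No paired analysis was possible because each MYC form has 1 peak list; leaving out a replicate could not be run either. The count of 10 members with a peak stood in each list with windows of 500, 1000 and 5000 bp and with a −log10 q of at least 10, while lists cut to 1 length gave 10 in 3A, 10 in 7A and 9 in WT. With summits within 100 bp as the partner rule, 7 members in 3A and 6 in 7A had a WT partner in place of 10; an overlap of 50% of both peaks gave 10. Joining peaks within 100 bp left the width ratios as they were. Ranked by −log10 q the median percentiles were 79.97 in 3A, 76.3 in 7A and 82.1 in WT. Among peaks of protein-coding genes they were 72.5 in 3A, 64.0 in 7A and 73.1 in WT, and after cutting all lists to the same length 73.99 in 3A and 76.2 in WT. This last WT median covers 9 members, without the weakest, PLK4, and that of 3A all 10, so the 2 are not like for like. The number of members higher in 3A than in WT was 5 by −log10 q, in place of 8. By −log10 q the difference from WT turned to −0.83 points for CCNA2, −1.51 for PLK1 and −2.10 for PLK4 in 3A, and to −5.66 for CCNA2 in 7A; with lists of equal length it turned to 2.36 for PLK1 in 7A. Of 58 such single-gene differences 5 changed sign in all. By −log10 q 1 more grew and 10 shrank by over 1.5 times. With equal lengths 8 grew and 3 shrank, and among gene peaks 1 grew. Equal lengths left the percentile of CDK1 at 68.7 in 7A, the shortest list. They lowered it from 76.5 to 74.6 in 3A and from 57.8 to 42.3 in WT, the longest list. The causes of the changes by −log10 q and among gene peaks were not tested. Library depth, replicate spread and Dox cannot be read from the lists.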
